A study of Mus musculus with 10 samples.

Results

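The genes described here carry glucose from the cell surface to lactate, to the mitochondrial pyruvate dehydrogenase complex and through the pentose phosphate pathway. The list held 35 mouse gene symbols and was chosen with earlier results of these data known. Each gene was read from its brightest probe set, that is the one of highest average signal on the 10 arrays, and its other probe sets served as a check. Of the 35 genes, 31 were measured by a probe set that the platform annotation pairs with 1 symbol. Gapdh was measured by control probe sets only, which brought the number to 32 of the 18193 genes named on the array. Gpi1, Eno1 and G6pdx were not named by the annotation used here and were not analysed here.

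The study compared splenic B cells of 2 genotypes on 1-colour Affymetrix 3′ expression arrays. The Irf4+/+ group kept both copies of Irf4, which encodes an interferon regulatory factor that activated B cells need to form plasma cells and to switch class, and the Irf4-/- group had both disrupted. Each group had 5 arrays, and all came from C57BL/6 littermates aged 12 weeks. Both groups had non-B cells of the spleen removed by magnetic depletion and were then kept in culture for 3 days with an antibody to CD40 and with 20 ng/ml IL-4, so every sample was a stimulated one. Neither separate mice nor separate cultures are named for the 5 samples per genotype, so the p-values measure only how far those samples spread, which may be technical. The allele and the tissues that lacked Irf4 are not described either.

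Glycolysis splits glucose into pyruvate in the cytosol and yields ATP and building blocks. A cell may reduce the pyruvate to lactate and export it, or pass it to the pyruvate dehydrogenase complex, which makes acetyl-CoA in mitochondria. The pentose phosphate pathway branches off at glucose 6-phosphate and supplies NADPH and ribose 5-phosphate, the sugar of nucleotides. Resting B cells use little glucose, and activation through CD40 and IL-4 is known to raise glucose uptake as the cells grow and divide.

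A signal is the linear intensity that MAS5 software assigned to a probe set, in arbitrary units, and signals of different probe sets are not comparable as amounts of RNA. Fold changes are given as Irf4-/- over Irf4+/+ on the scale log2(signal + 7.9), which understates the change of dim genes. A gene was called lower or higher at an adjusted p under 0.05 in a limma fit over 12253 genes. In that fit 47.2% of all genes were called, 23.9% lower and 23.3% higher in Irf4-/- cells. Every count or share of called genes or markers below is to be read against these.

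Arrays of one genotype correlated at 0.977 to 0.985 and arrays of different genotypes at 0.938 to 0.945, and no array stood apart from its genotype. The Irf4 probe set read 3761 ± 211 to 2792 ± 128 (mean ± SD, n = 5 per genotype; adjusted p = 5.01e-06). The signal in the Irf4-/- group lay below that of the Irf4+/+ group but remained high. Where the probes lie relative to the disrupted part was not known here, and this probe set does not check the genotype. All 9 tested B cell markers were higher in Irf4-/- cells, with a summed signal of 45518 to 49894 against 24911 to 27572. All 10 tested natural killer cell markers were also higher, with a summed signal of 11790.3 to 16180.1 against 1323 to 1551. Most of that sum came from Gzma (819 ± 106 to 8256 ± 1380, 9.94-fold) and Gzmb (362 ± 51.6 to 4868 ± 533, 13.2-fold). Ncr1, Klrd1, Klre1, Nkg7 and Il2rb had Irf4+/+ means of 15.8 to 24.0. They reached 25.1, the mean over all arrays below which probe sets were not tested, only through the Irf4-/- group. Their part of the count is therefore no test. The T cell markers summed to 4676 to 5746 against 1130.4 to 1534, nearly all of it from Thy1. Of the 4 tested, 2 were higher (Thy1 and Cd5), 1 was lower (Cd28, 82.9 ± 11.0 to 55.3 ± 7.29) and Cd8a was not called (81.9 ± 16.3 to 77.2 ± 10.9), while Cd3e, Cd3d, Cd3g and Cd4 had means of 5.68 to 12.0 in both groups, under the level of 25.1 below which probe sets were not tested. The macrophage and monocyte markers summed to 1466 to 1839 against 474 to 547, with 4 of 7 tested markers higher, and C1qa, Cd14 and Itgam stayed under that level in both groups. Granulocyte markers summed to 650.0 to 1099 against 139 to 224, with 3 of 5 higher. Lyz1, S100a8 and S100a9 had Irf4+/+ means of 6.72, 18.3 and 6.56 and too reached the tested level only through the Irf4-/- group. Dendritic cell markers summed to 729 to 797 against 1023 to 1181, with 2 of 4 higher and 2 lower. The lower ones were Flt3 (417 ± 29.7 to 53.2 ± 15.6) and Batf3 (297 ± 29.5 to 191 ± 43.2). The higher ones were Itgax (33.3 ± 22.8 to 75.2 ± 17.3) and Zbtb46 (291 ± 16.3 to 382 ± 31.9). The erythroid and platelet markers summed to 142 to 296 against 165 to 282, and the 2 tested ones, Pf4 and Itga2b, were not called. The 18S control signal was 142 ± 46.5 in Irf4-/- and 40.7 ± 16.2 in Irf4+/+ samples (exact permutation test, p = 0.00794, adjusted p = 0.0185 over 7 measures). The ratio of 3′ to 5′ Actb control signals was 1.10 ± 0.0227 against 1.15 ± 0.0259 (exact permutation test, adjusted p = 0.0417). Apart from the erythroid and platelet sum, the summed marker signals and the 18S and Actb control values moved with the genotype, and so with every difference below. Single markers did not all move: 1 of 4 tested T cell, 3 of 7 macrophage and monocyte and 2 of 5 granulocyte markers were not called. The part of the marker and control values in the differences below was not tested.

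Most of the glucose genes were lower in Irf4-/- cells. Of the 31 tested, 23 fell (74.2%), against 23.9% of all genes, and 4 rose (12.9%), against 23.3% of all genes. Their median log2 fold change was -0.36, while that of all tested genes was 0.0044. These values describe a list chosen with earlier results of these data known and are no test of it. The genes that rose were Aldoc and Eno2, isoforms of aldolase and enolase best known from the brain, and Pgls and Taldo1 of the pentose phosphate pathway. Hk1, Bpgm, Ldhb and Rpe were not called. In bulk samples such as these, fewer cells of a type and less RNA per cell cannot be told apart.

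Most changes were modest. Of the 27 called genes, 17 changed by under 1.5-fold. A further 8 fell at least 1.5-fold (25.8% of the tested members, against 8.40% of all genes), namely Slc16a1, Hk2, Rpia, Slc16a3, Dld, Pdhb, Dlat and Pgam1, and 2 of these, Slc16a1 and Hk2, fell at least 2-fold. Aldoc and Eno2 rose at least 1.5-fold (6.45%, against 11.4% of all genes). For 18 genes every Irf4-/- array lay below every Irf4+/+ array (58.1%, against 18.3% of all genes), and for the 4 genes that rose every Irf4-/- array lay above (12.9%, against 17.4%). The ranges overlapped for the other 9, among them 5 genes that fell, Slc2a3, Pfkm, Pfkfb3, Aldoa and Tkt. The median coefficient of variation of the members was 7.89% within Irf4+/+ and 9.30% within Irf4-/- samples.

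**Figure D1:**
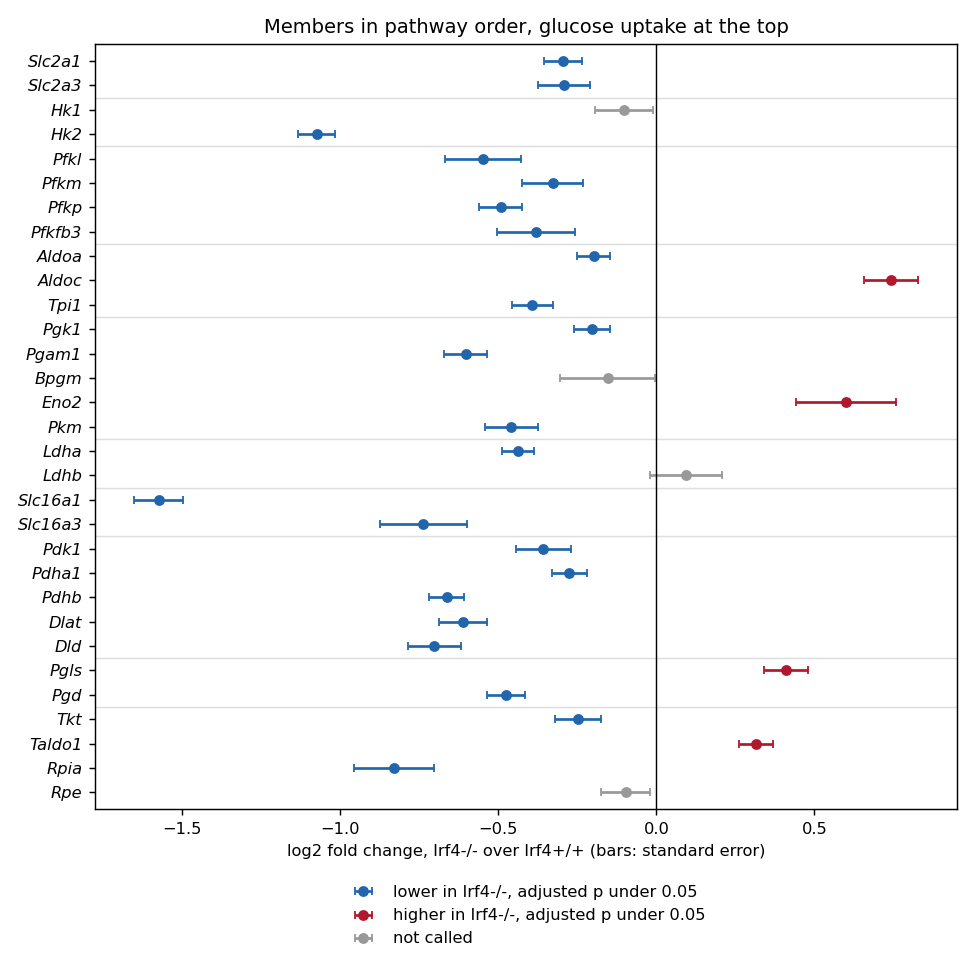
Log2 fold change (Irf4-/- minus Irf4+/+) of the 31 tested genes in pathway order, with bars of 1 standard error from the limma fit and 5 arrays per genotype. Of these genes 26 lie below 0, 23 of them called lower, the 4 called higher lie above, and the longest distance from 0 is that of the lactate transporter gene Slc16a1 at -1.58.

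The promoters of Slc16a1 and Hk2, which fell most, and of Aldoc, which rose most, are printed from RefSeq (build GRCm38.p6). That of Ldha, whose enzyme makes lactate, is printed too, although Ldha fell only 1.35-fold and was not among the genes that moved most. Each run covers the 250 bases before the annotated start, 5′ to 3′ on the gene's strand, and where a gene has 2 annotated starts the upstream one was used. Capitals mark every match to CACGTG, the E-box bound by MYC with MAX, and to ACGTG, the core of the hypoxia response element, on either strand; CACGTG holds ACGTG within it.
Slc16a1, chr3:104638414-104638663, plus strand: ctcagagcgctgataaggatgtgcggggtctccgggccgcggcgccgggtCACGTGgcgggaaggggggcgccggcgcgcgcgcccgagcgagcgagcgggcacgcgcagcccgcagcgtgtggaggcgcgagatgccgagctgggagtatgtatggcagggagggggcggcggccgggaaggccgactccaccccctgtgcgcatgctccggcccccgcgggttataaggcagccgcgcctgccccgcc
Hk2, chr6:82774455-82774704, minus strand: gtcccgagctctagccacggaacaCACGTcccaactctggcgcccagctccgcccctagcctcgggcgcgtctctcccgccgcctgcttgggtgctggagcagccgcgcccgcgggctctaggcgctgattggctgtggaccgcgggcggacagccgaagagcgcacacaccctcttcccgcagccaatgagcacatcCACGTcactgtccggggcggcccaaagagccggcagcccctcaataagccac
Ldha, chr7:46845554-46845803, plus strand: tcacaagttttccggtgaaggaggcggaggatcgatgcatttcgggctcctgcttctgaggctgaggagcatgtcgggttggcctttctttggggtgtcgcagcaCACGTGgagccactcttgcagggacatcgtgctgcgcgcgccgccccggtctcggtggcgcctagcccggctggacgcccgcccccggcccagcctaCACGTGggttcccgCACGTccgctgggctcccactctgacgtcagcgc
Aldoc, chr11:78322823-78323072, plus strand: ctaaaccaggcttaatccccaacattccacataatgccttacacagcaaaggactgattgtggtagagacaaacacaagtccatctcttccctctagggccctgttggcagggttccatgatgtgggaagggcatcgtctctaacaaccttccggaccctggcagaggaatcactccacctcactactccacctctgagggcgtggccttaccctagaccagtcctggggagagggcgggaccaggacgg
The Slc16a1 promoter holds 1 CACGTG, which begins 200 bases before the start. Hk2 has no CACGTG in this stretch and 2 ACGTG cores, at 226 and 52 bases before the start. Ldha has CACGTG at 145 and 48 bases and a further ACGTG core at 34 bases before its start. The printed stretch of Aldoc holds neither motif, but an ACGTG core lies elsewhere in the 300-base windows around its 2 annotated starts.

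RefSeq windows of 300 bases, from 250 before to 50 after the start, were at hand for 34 of the 35 genes (48 windows; none for Slc2a3) and 32851 windows in all. CACGTG occurred in 4 member windows (8.33%), those of Ldha, Pfkfb3, Pfkm and Slc16a1, and in 7.15% of all windows. ACGTG occurred in 19 windows of 16 genes (39.6%) and in 19.6% of all windows. These genes were Aldoa, Aldoc, G6pdx, Gapdh, Hk1, Hk2, Ldha, Pdhb, Pfkfb3, Pfkm, Pgam1, Pgk1, Pkm, Slc16a1, Slc16a3 and Slc2a1, and so include genes that fell, the riser Aldoc and the uncalled Hk1. GGAANNGAA, the composite motif bound by IRF4 with PU.1, occurred in 9 windows of 8 genes (18.8%), those of Dld, Eno1, Eno2, Pdk1, Pkm, Rpe, Slc16a3 and Taldo1, and in 8.24% of all. GAAANNGAA, a motif of the interferon response type, occurred in the windows of Pgk1 and Rpe (4.17%) and in 8.56% of all. Both strands were searched, and matches to the last 2 motifs can overlap. The median GC content was 60.8% in the member windows and 52.7% in all windows, so the windows compared differ in base composition. A match of letters is a description and not a binding site.

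Glucose entry and trapping was lower at 3 of its 4 genes. Hk2, which encodes the inducible hexokinase that commits glucose to the cell by phosphorylating it, fell 2.11-fold. Its signals were 1946, 2020.0, 1976, 1947 and 1749.7 on the Irf4+/+ arrays and 845, 937, 971, 900.2 and 899.7 on the Irf4-/- arrays. No Irf4-/- array read above 971, and the lowest Irf4+/+ array, replicate 5, still read 1749.7. The mean went from 1928 ± 104 to 910.5 ± 47.0 (log2 fold change -1.08, SE 0.0578, adjusted p = 2.26e-10). Hk1, the constitutive hexokinase, was not called, at 868 ± 126 to 805 ± 75.5 (log2 fold change -0.10, SE 0.0921, adjusted p = 0.399), and its arrays overlapped. Slc2a1, which encodes the main glucose transporter GLUT1 of activated lymphocytes, fell 1.23-fold, from 2121 ± 146 to 1725 ± 93.8 (log2 fold change -0.30, SE 0.0594, adjusted p = 0.000564). All 3 of its probe sets were called lower.

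Slc2a3, which encodes the high-affinity transporter GLUT3, fell 1.22-fold on its brightest probe set, but its probe sets differed. The brightest read 1147, 979, 1285, 1114 and 1217 on the Irf4+/+ arrays and 936, 1000.3, 1032, 935 and 779 on the Irf4-/- arrays, with overlapping groups (log2 fold change -0.29, SE 0.0837, adjusted p = 0.0084). Of its other 3 probe sets, 1 was called lower and the 2 dimmest, with means of 31.4 to 52.1 in either group, were not called. The call was lost with the mean of all probe sets (adjusted p = 0.287) and when probe sets marked as shared between transcripts were left out (adjusted p = 0.732).

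At the phosphofructokinase step, the main control point of glycolysis, all 4 genes fell, with a median log2 fold change of -0.44. Pfkl, the liver-type subunit, fell 1.46-fold, with signals of 1529.5, 1652, 2474, 1824 and 2098 on the Irf4+/+ arrays and 1218, 1398, 1467, 1381 and 1024 on the Irf4-/- arrays. The groups did not overlap, but Irf4+/+ samples spread widely, with an SD of 378 around 1915 (log2 fold change -0.55, SE 0.119, adjusted p = 0.00111). Its call was lost without shared probe sets (adjusted p = 0.364), which left only its dimmest probe set. Pfkp, the platelet-type subunit, fell 1.41-fold, from 1461 ± 112 to 1036 ± 73.8 with no overlap (log2 fold change -0.49, SE 0.0673, adjusted p = 1.3e-05). Pfkm, the muscle-type subunit, fell 1.26-fold, from 237 ± 29.7 to 186 ± 9.76 (log2 fold change -0.33, SE 0.0959, adjusted p = 0.00949). Its lowest Irf4+/+ array, at 197, lay under the highest Irf4-/- array, at 201. Pfkfb3 makes fructose 2,6-bisphosphate, the activator of phosphofructokinase, and fell 1.30-fold. Its signals were 286, 224, 313, 358 and 294 on the Irf4+/+ arrays and 204, 178, 257, 231 and 249.9 on the Irf4-/- arrays, with overlap (log2 fold change -0.38, SE 0.124, adjusted p = 0.0176). The Pfkfb3 call rested on single arrays, since the adjusted p was 0.054 without Irf4-/- replicate 2 and 0.056 without Irf4+/+ replicate 4.

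From the aldolases to pyruvate kinase, 5 of 8 tested genes fell, 2 rose and 1 was not called. Aldoc, which encodes aldolase C, rose 1.67-fold, with signals of 643, 593, 629.7, 564 and 706 on the Irf4+/+ arrays and 1111, 1230.3, 1103, 893 and 955 on the Irf4-/- arrays. All 5 Irf4-/- arrays lay above all Irf4+/+ arrays (log2 fold change 0.74, SE 0.0864, adjusted p = 2.24e-06). The other Aldoc probe set, at 26.7 against 60.7, was higher as well. Aldoa, the main aldolase of lymphocytes, fell 1.15-fold on its brightest probe set, with signals of 9762, 9196, 10678, 10283 and 10236 on the Irf4+/+ arrays and 8668, 9388, 8719, 8607 and 8302 on the Irf4-/- arrays. Irf4-/- replicate 2 lay above the lowest Irf4+/+ array (log2 fold change -0.20, SE 0.0519, adjusted p = 0.00456). Of 5 Aldoa probe sets 2 were called lower, 3 were not called and 1 of these had the opposite sign, and the mean of all 5 was not called (adjusted p = 0.299).

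Tpi1, which interconverts the triose phosphates, fell 1.31-fold, from 7812 ± 579 to 5953 ± 485 (log2 fold change -0.39, SE 0.0653, adjusted p = 0.0001), and all 3 of its probe sets were called lower. Gapdh, the step that makes NADH, was measured by control probe sets for 3 stretches of its transcript. The middle one read 16165, 16121, 17498, 16603 and 16413 on the Irf4+/+ arrays and 14007, 15779.9, 14079.6, 12586 and 14170.5 on the Irf4-/- arrays. Every Irf4-/- array lay below every Irf4+/+ array (log2 difference -0.23; exact permutation test, p = 0.00794, adjusted p = 0.0185 over 7 measures). The 5′ control went from 17713 ± 724 to 15806 ± 889, also with no overlap (log2 difference -0.17; exact permutation test, adjusted p = 0.0185). The 3′ control, at 15164 ± 725 to 13609 ± 1363, missed the threshold (log2 difference -0.16; exact permutation test, adjusted p = 0.0778). It passed without Irf4-/- replicate 1 or without Irf4-/- replicate 2 (exact permutation test, adjusted p = 0.0444 and 0.0417). The middle and 5′ calls were lost without Irf4+/+ replicate 3 (exact permutation test, adjusted p = 0.0556 for both).

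Pgk1, which makes the first ATP of the pathway, fell 1.15-fold, from 15356 ± 559 to 13362 ± 1145 (log2 fold change -0.20, SE 0.058, adjusted p = 0.00803). The other 2 Pgk1 probe sets went from 10639 to 8561 (log2 fold change -0.32) and from 4428 to 2449.5 (log2 fold change -0.83). The size of the fall thus depended on the probe set, while all 3 were called lower. Pgam1, which moves the phosphate of 3-phosphoglycerate, fell 1.52-fold. Its signals were 5118, 4736, 5500.0, 4756 and 4652 on the Irf4+/+ arrays and 3032, 3514, 3656, 3170.0 and 2936 on the Irf4-/- arrays, with no overlap (log2 fold change -0.60, SE 0.0679, adjusted p = 1.52e-06). Eno2, the neuronal-type enolase, rose 1.52-fold at a low signal. It read 54.0, 70.9, 48.9, 56.8 and 64.5 on the Irf4+/+ arrays and 112, 85.9, 113, 76.7 and 82.6 on the Irf4-/- arrays, and the groups did not overlap (log2 fold change 0.60, SE 0.158, adjusted p = 0.00471). The gap was narrow, from 70.9 to 76.7. Pkm, the pyruvate kinase of dividing cells, fell 1.37-fold, from 6719 ± 651 to 4899 ± 591 with no overlap (log2 fold change -0.46, SE 0.0834, adjusted p = 0.000235). Bpgm, which makes 2,3-bisphosphoglycerate and is best known from red cells, was dim and was not called at 116 ± 27.4 to 102 ± 14.1 (log2 fold change -0.15, SE 0.15, adjusted p = 0.435).

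Lactate formation and export held the gene that fell furthest. Slc16a1, which encodes the lactate and pyruvate transporter MCT1, fell 2.98-fold, with signals of 1482, 1915, 1677, 1723 and 1927 on the Irf4+/+ arrays and 589.5, 553, 559.8, 655 and 538 on the Irf4-/- arrays. The highest Irf4-/- array, at 655, stood far below the lowest Irf4+/+ array, at 1482 (log2 fold change -1.58, SE 0.0777, adjusted p = 8.27e-11). Slc16a3, which encodes the lactate exporter MCT4, fell 1.67-fold. Its arrays read 216, 236, 292, 307 and 301 on the Irf4+/+ arrays and 166, 189, 178, 157 and 109.8 on the Irf4-/- arrays, without overlap (log2 fold change -0.74, SE 0.139, adjusted p = 0.000328). Ldha, the lactate dehydrogenase subunit that favours lactate formation, fell 1.35-fold, from 11328 ± 400.0 to 8375 ± 507 (log2 fold change -0.44, SE 0.051, adjusted p = 2.33e-06). Its promoter is the one with 2 E-boxes printed above.

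Ldhb, the subunit of the lactate dehydrogenase that favours pyruvate, gave no single answer. Its brightest probe set was not called, with signals of 158, 174, 167, 240.2 and 191 on the Irf4+/+ arrays and 218, 192, 181, 179.7 and 216 on the Irf4-/- arrays and overlapping groups (log2 fold change 0.09, SE 0.114, adjusted p = 0.544). Its 2 dimmer tested probe sets were called lower, from 49.8 to 26.5 (log2 fold change -0.74) and from 49.9 to 21.7 (log2 fold change -1.06). With the mean of the probe sets Ldhb turned from 0.09 to a fall of 0.57 on the log2 scale (adjusted p = 0.00379), so the direction of Ldhb depended on the probe sets used.

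**Figure D2:**
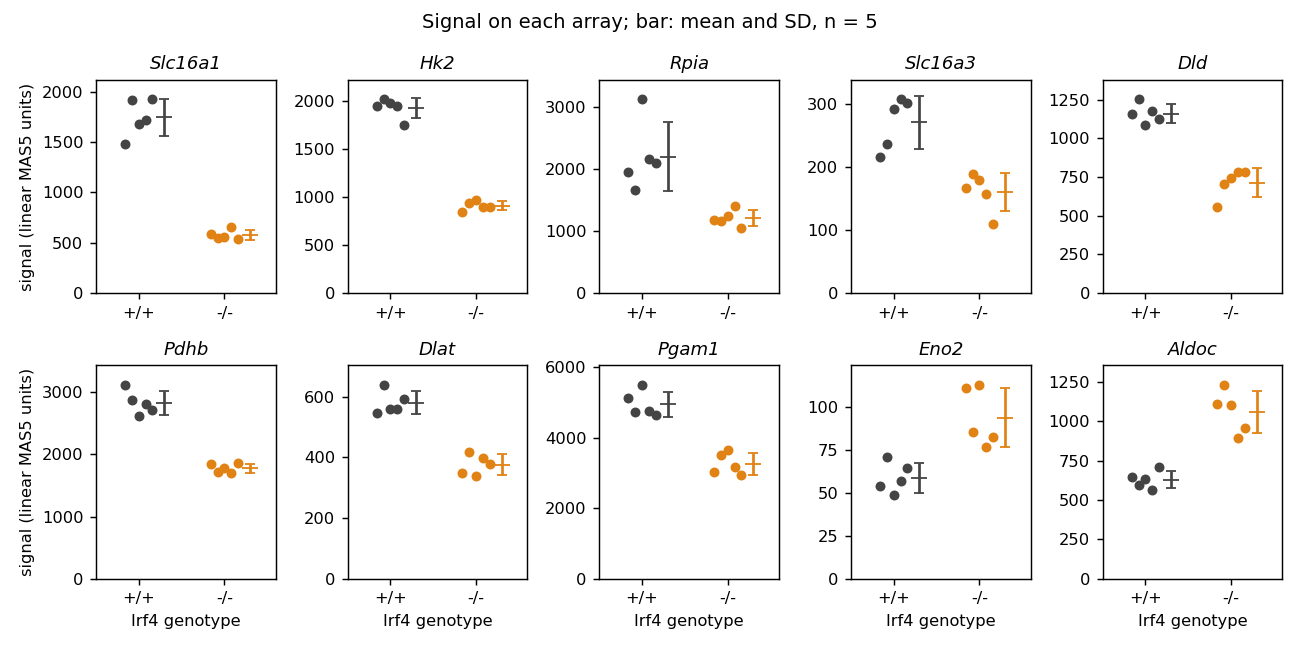
Signal (linear MAS5 units, axes starting at 0) of the 10 genes that changed at least 1.5-fold, with 1 point per array, 5 arrays per genotype and a bar for the mean and SD. The points of the genotypes do not overlap for any of these genes: 8 genes are lower on all 5 Irf4-/- arrays, and Aldoc and Eno2 are higher on all 5.

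All 5 genes of the pyruvate dehydrogenase group fell, with a median log2 fold change of -0.61. Dld, the dihydrolipoamide dehydrogenase that this complex shares with 2-oxoglutarate dehydrogenase, fell 1.63-fold. Its arrays read 1156, 1254, 1087, 1179 and 1128 on the Irf4+/+ arrays and 559, 705, 744, 786 and 779.8 on the Irf4-/- arrays (log2 fold change -0.70, SE 0.0842, adjusted p = 3.1e-06). The highest Irf4-/- array, at 785.5, lay well below the lowest Irf4+/+ array, at 1087. Pdhb, the beta subunit of the decarboxylase, fell 1.58-fold, and its signals were 3117, 2877, 2614, 2804 and 2711 on the Irf4+/+ arrays and 1851, 1713, 1772, 1698 and 1854 on the Irf4-/- arrays (log2 fold change -0.66, SE 0.0562, adjusted p = 5.61e-08). Dlat, the acetyltransferase core, fell 1.53-fold, with signals of 545, 639, 559.7, 560.0 and 593 on the Irf4+/+ arrays and 348, 419, 339.8, 399 and 377 on the Irf4-/- arrays (log2 fold change -0.61, SE 0.0756, adjusted p = 4.23e-06). For Pdhb and Dlat too the groups did not overlap on these probe sets. The other Pdhb probe set was dim and was not called, from 38.4 to 36.6. The dimmest Dlat probe set was not called either, from 217 to 184. Pdha1, the alpha subunit that is switched off by phosphorylation, fell 1.21-fold, from 1956 ± 118 to 1614 ± 70.3 (log2 fold change -0.28, SE 0.0561, adjusted p = 0.000651), and both of its probe sets were called lower.

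Pdk1, the kinase that phosphorylates and inhibits the complex, fell together with the subunits on 3 of its 4 probe sets. The brightest read 1211, 1329, 1155, 1178 and 1123 on the Irf4+/+ arrays and 789, 1019, 1001, 1085 and 808 on the Irf4-/- arrays, with no overlap (log2 fold change -0.36, SE 0.0868, adjusted p = 0.00269). Its dimmest probe set went the other way, from 30.6 to 58.6 (log2 fold change 0.79), and was the one probe set called against a brightest probe set that was itself called. With the mean of all 4 probe sets Pdk1 was not called (adjusted p = 0.428).

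The pentose phosphate genes were mixed, with 3 of 6 tested lower, 2 higher and 1 not called. In the oxidative branch, which yields NADPH, Pgd, the second NADPH-producing enzyme, fell 1.39-fold, from 2706 ± 214 to 1941 ± 99.4 (log2 fold change -0.48, SE 0.0611, adjusted p = 6.6e-06), and all 4 of its probe sets were called lower. Pgls, the lactonase between the NADPH-producing steps, rose 1.33-fold. Its signals were 1559.7, 1397, 1720.1, 1593 and 1755 on the Irf4+/+ arrays and 2251, 2206, 2274, 1934 and 2000.1 on the Irf4-/- arrays, with no overlap (log2 fold change 0.41, SE 0.0694, adjusted p = 0.000118). Neighbouring steps of this branch thus moved in opposite directions.

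In the non-oxidative branch, Rpia, the isomerase that makes ribose 5-phosphate, fell 1.78-fold. Its arrays read 1949.6, 1659.9, 3119.6, 2158 and 2095 on the Irf4+/+ arrays and 1184, 1166, 1243, 1408 and 1047 on the Irf4-/- arrays (log2 fold change -0.83, SE 0.126, adjusted p = 3.82e-05). The Irf4-/- arrays lay in a narrow range below the Irf4+/+ arrays, of which replicate 3 was far above the others. Taldo1, transaldolase, rose 1.25-fold, with signals of 1489.5, 1379, 1418, 1357 and 1459.9 on the Irf4+/+ arrays and 1659.9, 1826, 1894, 1725 and 1754 on the Irf4-/- arrays and no overlap (log2 fold change 0.32, SE 0.0537, adjusted p = 0.00012). Tkt, transketolase, fell 1.19-fold on its brightest probe set, at 10666, 10133, 11182, 11640.2 and 12167 on the Irf4+/+ arrays and 8858, 9554, 11093, 8166 and 9433 on the Irf4-/- arrays, with overlap (log2 fold change -0.25, SE 0.0731, adjusted p = 0.00992). The other 2 Tkt probe sets were not called, and the call was lost with the mean of all 3 (adjusted p = 0.339) and without shared probe sets (adjusted p = 0.072). Rpe, the epimerase of ribulose 5-phosphate, was not called at 1061 ± 83.8 to 993 ± 107 (log2 fold change -0.10, SE 0.0773, adjusted p = 0.332).

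The probe sets of a gene gave a second reading of 19 members. Of 37 further tested probe sets, 30 had the sign of the brightest one and 7 the opposite sign. When all probe sets were tested, 19 of these 37 were called lower and 2 higher, beside 21.4% and 21.1% of the 22535 probe sets tested. Among the 14 genes that fell and had more than 1 tested probe set, 10 had the same sign on every one. In 5 of them, Slc2a1, Tpi1, Pgk1, Pdha1 and Pgd, every tested probe set was called lower. Hk2, Pfkm, Slc16a1, Slc16a3, Pgam1, Pkm, Ldha, Dld, Rpia and the risers Eno2, Pgls and Taldo1 had 1 tested probe set each and so no second reading.

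**Figure D3:**
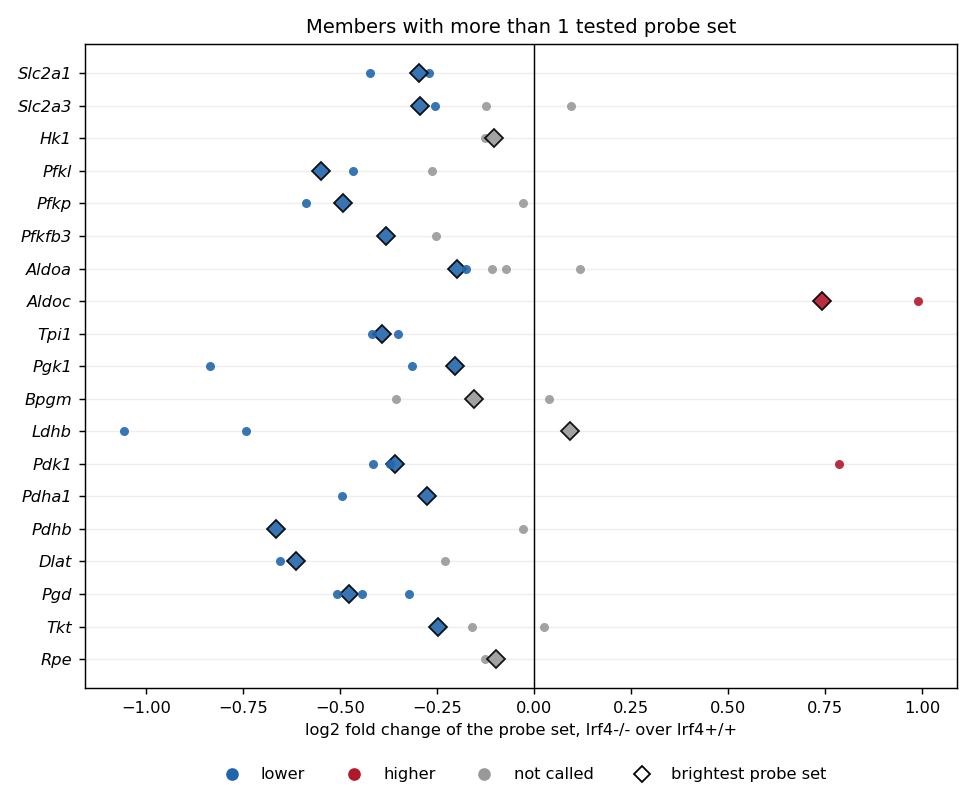
Log2 fold change (Irf4-/- minus Irf4+/+) of every tested probe set of the 19 genes with more than 1, with the brightest probe set of each gene set apart from the others. Of the 37 others, 7 lie on the opposite side of 0 from the brightest, among them the 2 dimmer Ldhb probe sets at -0.74 and -1.06 and the dimmest Pdk1 probe set at 0.79.

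Isozyme genes for 1 reaction were compared within each array, as the difference of their log2 signals, to ask whether they moved unequally. There were 8 such comparisons, each by an exact two-sided permutation test on 5 against 5 arrays, with p-values adjusted over the 8. Such a ratio shows unequal change and not which gene is more abundant. The hexokinase log2 ratio of Hk2 to Hk1 ranged from 0.89 to 1.38 on Irf4+/+ and from 0.046 to 0.38 on Irf4-/- arrays, a difference of -0.97 (exact permutation p = 0.00794, adjusted p = 0.0212). The aldolase log2 ratio of Aldoa to Aldoc ranged from 3.84 to 4.17 on Irf4+/+ and from 2.92 to 3.26 on Irf4-/- arrays, a difference of -0.94 (exact permutation adjusted p = 0.0212). For the lactate transporters, Slc16a1 fell more than Slc16a3, with a difference of -0.84 (exact permutation adjusted p = 0.0212). None of these 3 ratios overlapped between genotypes.

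The log2 ratio of Ldha to Ldhb, at 5.50 to 6.12 on Irf4+/+ and 5.20 to 5.51 on Irf4-/- arrays, differed by -0.53 (exact permutation p = 0.0159, adjusted p = 0.0317). With the mean of the probe sets this difference turned to 0.13 (exact permutation adjusted p = 0.508). Slc2a1 and Slc2a3 differed in their change by -0.0038 (exact permutation p = 0.976), with SDs between arrays of 0.21 and 0.15, so no unequal change was detectable. Among the phosphofructokinases the differences were -0.22 for Pfkl to Pfkm, -0.057 for Pfkl to Pfkp and 0.16 for Pfkm to Pfkp, and none passed the exact permutation test (adjusted p = 0.216, 0.871 and 0.286).

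**Figure D4:**
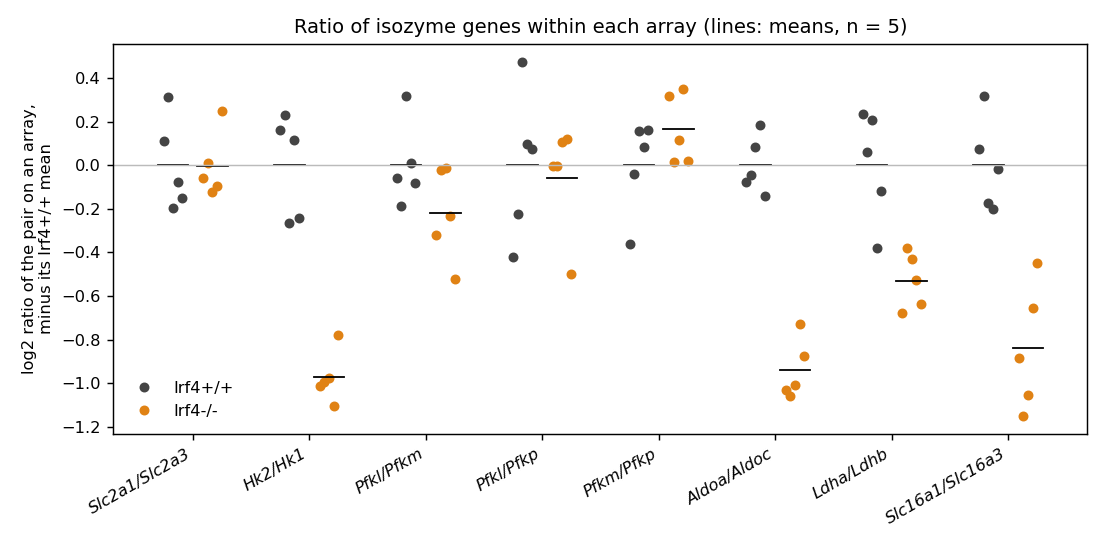
Log2 ratio of the signals of 8 pairs of isozyme or transporter genes within each array, drawn relative to the mean of the Irf4+/+ arrays, with 1 point per array, 5 arrays per genotype and a line at each group mean. The Irf4-/- points of Hk2/Hk1, Aldoa/Aldoc and Slc16a1/Slc16a3 lie wholly below the Irf4+/+ points, while those of Slc2a1/Slc2a3 and of the phosphofructokinase pairs overlap.

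Genes next to these pathways were read from lists of other genes. Their counts are to be read against the 23.9% of all genes called lower and the 23.3% called higher. Of 26 tested isoforms and neighbours of glycolysis, 6 were lower, 4 higher and 16 not called (median log2 fold change -0.12). Neither share exceeded that of all genes. Emb, which encodes embigin, a partner protein of monocarboxylate transporters, fell 3.77-fold, from 422 ± 25.4 to 106 ± 7.30 (log2 fold change -1.91, SE 0.0839, adjusted p = 2.01e-11). The other known partner, basigin (Bsg), fell 1.18-fold, from 2410.1 ± 198 to 2037 ± 139 (adjusted p = 0.00592). Both partner genes fell together with Slc16a1 and Slc16a3. Adpgk, an ADP-dependent glucokinase, fell 2.04-fold, and Pgm1, a phosphoglucomutase, fell 1.35-fold, though averaging its probe sets ended the Pgm1 call (adjusted p = 0.398). The higher genes were Pfkfb4, a relative of Pfkfb3, at 1.87-fold, Slc16a7 (MCT2) at 2.37-fold from a signal of only 19.6, Pgm2 at 1.26-fold and the transporter gene Slc2a6 at 1.22-fold, whose call was lost with median centring (adjusted p = 0.0511).

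Of 13 further genes of pyruvate entry and lipoyl transfer, 2 were lower, 4 higher and 7 not called (median -0.11). The lower share was under that of all genes and the higher share somewhat over it. Pdhx, the protein that binds Dld to the core, fell 1.51-fold, from 407 ± 42.9 to 266 ± 28.7 (adjusted p = 6.43e-05), and so did the other structural genes of the complex, Pdha1, Pdhb, Dlat and Dld, as given above. Me2, the mitochondrial malic enzyme, fell 1.74-fold. Pdp1, the phosphatase that reactivates the complex, rose 1.79-fold, from 129 ± 9.02 to 236 ± 7.12 (adjusted p = 5.86e-07), and its regulator Pdpr rose 1.22-fold. The kinase genes Pdk2 and Pdk3 rose 1.67-fold and 1.15-fold, Pdk2 at signals of only 27.6 and 50.2, and the Pdk3 call was lost with median centring (adjusted p = 0.157).

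Of 8 further pentose phosphate and ribose genes, 3 were lower, 3 higher and 2 not called (median 0.12). Prps2, which makes phosphoribosyl pyrophosphate from ribose 5-phosphate, fell 1.59-fold, from 2374 ± 239 to 1508 ± 291 (adjusted p = 7.43e-05), as did Rbks at 1.41-fold and Prpsap1 at 1.18-fold. Prpsap2, Pgm2 and Dera rose 1.21-fold, 1.26-fold and 1.17-fold, and Dera was not called after median centring (adjusted p = 0.0855).

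The TCA cycle takes up the acetyl-CoA made by the complex, and 9 of its 16 tested genes were lower and 7 were not called (median -0.18). Suclg1 and Suclg2, subunits of succinate-CoA ligase, fell 1.497-fold and 1.46-fold. Idh3a, a subunit of isocitrate dehydrogenase, fell 1.73-fold on its brightest probe set, a call that ended on averaging its probe sets (adjusted p = 0.0595) and on leaving out shared ones (adjusted p = 0.652). In the branches to serine, hexosamine and glycogen, 9 of 16 were lower, 1 higher and 6 not called (median -0.29). Serine and glycine synthesis starts from a glycolytic intermediate, and Phgdh, Psat1, Psph, Shmt1 and Shmt2 fell 1.36-fold, 2.05-fold, 1.99-fold, 2.32-fold and 1.68-fold. Pygl, a glycogen phosphorylase, was the one gene of this list to rise, 3.41-fold from 57.3 ± 12.3 to 212 ± 26.3.

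Of 14 hypoxia-responsive genes outside glycolysis, 10 were lower, 2 higher and 2 not called (median -0.58). Ero1a, an oxidase of the endoplasmic reticulum, fell 2.78-fold, Vegfa fell 2.64-fold and Ddit4, an inhibitor of mTORC1, fell 1.99-fold. Adm, which encodes adrenomedullin, rose 2.13-fold and Ankrd37 rose 1.34-fold. Of 26 regulators of glycolytic genes, 6 were lower, 5 higher and 15 not called (median 0.062), and neither share exceeded that of all genes. Myc, a transcription factor known to raise glycolytic genes in dividing lymphocytes, fell 2.19-fold. It read 2646, 2607, 2608, 2543 and 2781 on the Irf4+/+ arrays and 1366, 1147, 1141, 1164 and 1206 on the Irf4-/- arrays (log2 fold change -1.13, SE 0.058, adjusted p = 1.38e-10), with no overlap. Rheb, the activator of mTORC1, fell 1.28-fold, from 2235 ± 96.5 to 1753 ± 123. The other lower regulators were Foxo1, Srebf1, Mtor and Txnip (log2 fold change -0.31, -0.29, -0.26 and -0.18).

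Hif1a, the oxygen-regulated factor behind the ACGTG core, read 2105, 2195, 1919.6, 1894 and 1763 on the Irf4+/+ arrays and 2146, 2294, 2098, 2393 and 2133 on the Irf4-/- arrays, with overlap (log2 fold change 0.17, SE 0.0645, adjusted p = 0.0449). That call was lost under 11 of 22 alternatives, and averaging its probe sets gave 0.0016 (adjusted p = 0.994). Stat3 rose 1.27-fold, from 2034 ± 91.7 to 2596 ± 166. Epas1, a relative of Hif1a, and Arrdc4 rose 2.22-fold and 2.12-fold from signals of 51.2 and 26.0, and Esrra rose 1.27-fold, a call lost with median centring (adjusted p = 0.0506) and with quantile normalization (adjusted p = 0.0503).

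**Figure D5:**
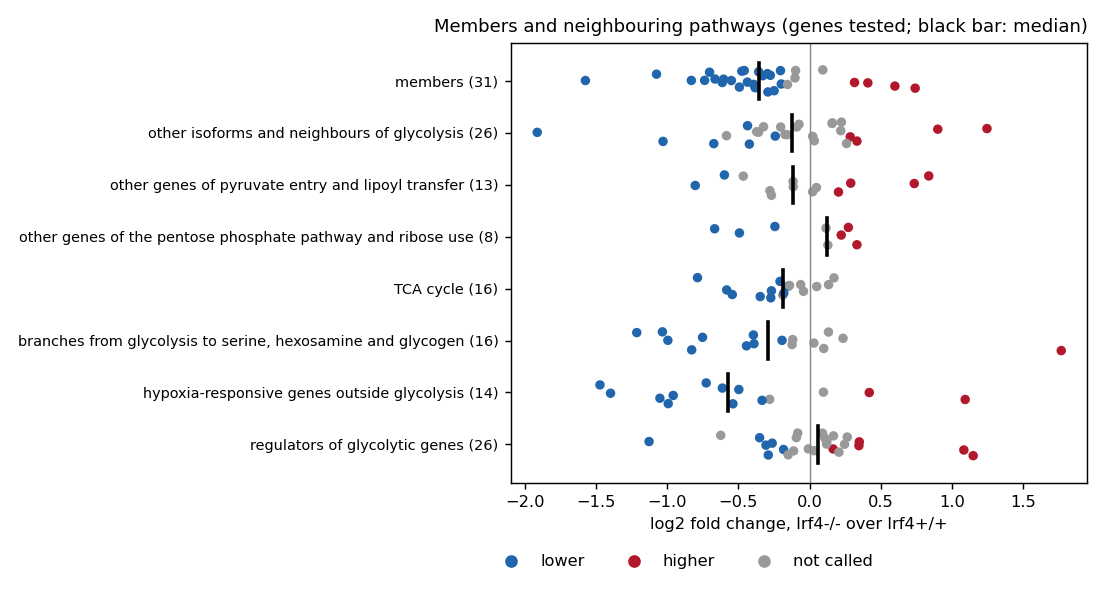
Log2 fold change (Irf4-/- minus Irf4+/+) of each tested gene in the list of glucose genes and in the 7 lists beside it, 1 point per gene, with a line at each median and the call marked. The medians run from -0.58 for the hypoxia-responsive genes to 0.12 for the further pentose phosphate genes, with the glucose genes at -0.36.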

How the data were processed

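The authors made the deposited intensity of each probe set on each array with MAS5, per the submitters' processing notes, on a linear scale. The sources used here give no MAS5 version or scaling target. With the top and bottom 2% of values removed, every array averaged 250, so no further scaling was applied. MAS5 subtracts mismatch probes, which leaves weak signals noisy after log transformation. Precision is limited by the number of arrays, 5 per genotype.

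Of 45101 probe sets, 64 were controls, 34945 had 1 symbol in the platform annotation, 932 had several and 9160 were not named. Symbols were updated through gene IDs in a RefSeq table (GRCm38.p6), which held 34741 of those with 1 symbol. Probe sets with a mean under 25.1, the 40th percentile of such means, were left out, and the brightest one per gene was kept. Values were taken as log2(signal + 7.9), 7.9 being the 20th percentile of all values, and genotype was fitted with limma 3.58.1 (lmFit, eBayes with trend; R 4.3.3), with two-sided p-values adjusted by the Benjamini-Hochberg method over 12253 genes. Isozyme ratios and control signals were tested by exact permutation, two-sided, where 5 against 5 arrays cannot give a p below 0.00794. The alternatives were other pseudocounts, filters, scalings and variance models, array weights, the mean of all probe sets, no shared probe sets, the replicate number as a block and each array left out. The limma procedure was tested on simulated data.

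The members and lists were chosen with earlier results of these data known. The rule named all 35 members, Irf4, Myc and Hif1a, up to 3 called genes of each list beside them by smallest p, and up to 2 markers of each cell type. Bsg, Slc16a7, Slc2a6, Pfkfb4, Pdpr, Pdk2, Pdk3, Rbks, Prpsap1, Dera, Psph, Shmt2, Phgdh, Vegfa, Ankrd37, Epas1, Arrdc4, Esrra, Cd28, Cd8a, Pf4, Itga2b and the markers singled out for values below the tested level, were chosen after seeing their values. Foxo1, Srebf1, Mtor, Txnip, Itgax and Zbtb46 were also chosen after seeing their values. Promoter motifs were searched as plain letters in RefSeq windows.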

Additional observations from a re-analysis of the deposited data

Results flagged for a closer look

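In 6 of 182 groups of 5 arrays examined gene by gene (3.3%), 1 array lay apart from the other 4 by more than 0.71 of the group's whole range, and chance alone gives about 1 in 20. Hk2 had its lowest Irf4+/+ signal on replicate 5, at 1749.7 against 1946.2 to 2020 on the others, still far above every Irf4-/- array. Bpgm had its highest Irf4-/- signal on replicate 5, at 127.5 against 93.8 to 97.1. Myc had its highest Irf4-/- signal on replicate 1, at 1365.9 against 1140.6 to 1205.6, which stayed below every Irf4+/+ array. Esrra had its lowest Irf4-/- signal on replicate 2, at 132.2 against 166.9 to 175.9. Of the cell type markers, S100a8 of granulocytes had its highest Irf4+/+ signal on replicate 4, at 31.8 against 11 to 16.4. Batf3 of dendritic cells had its highest Irf4-/- signal on replicate 1, at 266.7 against 160.7 to 184. The Hk2 and Myc calls were kept without each of the 10 arrays in turn.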

How the results depend on the processing

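Under 22 alternatives, 21 of the 27 called members kept their direction and their call wherever they could be tested, 6 lost the call under at least 1 (Slc2a3, Pfkl, Pfkfb3, Aldoa, Pdk1 and Tkt) and none reversed. The count of lower members was 22 to 23 and of higher members 4 with 1 array left out, and 20 and 4 with the mean of the probe sets. Without shared probe sets 22 members could be tested, of which 15 were lower and 2 higher. The members' median log2 fold change ran from -0.42 with median centring, which moved the median of all genes to -0.057, to -0.32. Uncalled Ldhb reached -0.57 with the mean of the probe sets, and Ldha/Ldhb then gave 0.13. Slc2a1/Slc2a3, never called, gave 0.023 with quantile normalization and -0.067 to 0.074 with 1 array left out, and Pfkl/Pfkp gave -0.16 to 0.062. The Gapdh 3′ to 5′ ratio, which was 0.859 in Irf4-/- and 0.856 in Irf4+/+ samples, gave log2 differences of -0.012 to 0.032 with 1 array left out. The 18S call was lost without Irf4+/+ replicate 3 and the Actb ratio call without any of 7 arrays, at an exact permutation adjusted p of 0.0556 to 0.0694.

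Replicate numbers did not pair the samples: the correlation of deviations between samples with the same number was -0.040 to 0.051, and number 4 alone correlated best with its own. With the replicate block limma gave 23 lower and 4 higher members. With it the ratios of Hk2/Hk1, Aldoa/Aldoc, Ldha/Ldhb and Slc16a1/Slc16a3 kept differences of -0.97, -0.94, -0.53 and -0.84 but an exact permutation adjusted p of 0.125, a design of 5 pairs in which no p under 0.05 is possible.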
